A study of Mus musculus with 8 samples.

Results

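The acyl-CoA thioesterase (Acot) genes Acot1, Acot2, Acot3, Acot4, Acot5, Acot6, Acot7, Acot8, Acot12 and Acot13 were examined in livers of male Apoe-/- mice on a Western diet. Apoe-/- mice lack apolipoprotein E, so that plasma lipoproteins accumulate and atherosclerosis develops. All 8 mice carried the deletion and received the diet. The vehicle group (n = 4) received the solvent, named DMSO in the table, and the ISOGK group (n = 4) was injected with isoginkgetin, a plant biflavone, at 20 mg/kg per day for 8 weeks. The age of the mice is not given in the sources used here. The members were chosen by gene symbol, and all 10 were found among the 16540 genes of the count table. The family was proposed because results of the same contrast, ISOGK against vehicle, were already known. The differences between the groups are therefore a description of these 8 livers, and no p-value is given for a member.

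Acyl-CoA thioesterases split fatty acyl-CoA into free fatty acid and coenzyme A (CoA). Acyl-CoA synthetases run the opposite step, so the balance between both enzyme families helps to set how much activated fatty acid and how much free CoA a compartment holds. In liver the thioesterases act beside fatty acid oxidation in mitochondria and peroxisomes, and several of them are textbook targets of PPAR alpha, the nuclear receptor that senses fatty acids. By established location, Acot1, Acot7 and Acot12 were grouped as cytosolic, Acot2 and Acot13 as mitochondrial, and Acot3, Acot4, Acot5, Acot6 and Acot8 as peroxisomal. Acot1 to Acot6 form one structural class, the type I enzymes, and the others belong to the unrelated type II class.

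The coding sequences already carry part of this division, so the final 30 coding bases of each member are shown 5′ to 3′, taken from the GENCODE M21 transcripts (GRCm38). The last 3 codons before the stop codon are in capitals, since peroxisomal enzymes of this kind are commonly imported through a short signal at their very end. Each run ends with its stop codon.
Acot3 (peroxisomal): aaaaagaagacaatcccaGCAAAACTGtga
Acot4 (peroxisomal): acccacagcagagcctccTGTAGACTGtag
Acot5 (peroxisomal): gacaagaggccaagcccaGCAAAACTAtga
Acot6 (peroxisomal): gaaaagcctgccaggcacAGCAAACTGtaa
Acot8 (peroxisomal): aagcctcaggtgtcagagAGTAAGCTAtag
Acot1 (cytosolic): gagtgtttgcatgtgtctCCTAAAATAtaa
Acot7 (cytosolic): cgacagggccacacagagCCTCAGCCCtag
Acot12 (cytosolic): actcctgatggacttaaaAGTGTGTTAtaa
Acot2 (mitochondrial): ttccacaaacagttgggtAGCAAGAGTtag
Acot13 (mitochondrial): ggcagacacacaaaacacCTGGGGAACtga
The last codon was CTG or CTA in the 5 peroxisomal members and in none of the other 5. For the last codon alone, this split is by spelling only, since TTA, the last codon of the cytosolic Acot12, is synonymous with both. Read as amino acids, the last 3 codons are alanine-lysine-leucine in Acot3 and Acot5, cysteine-arginine-leucine in Acot4 and serine-lysine-leucine in Acot6 and Acot8. In Acot12 they are serine-valine-leucine, and the remaining members do not end in leucine.

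Acot2 differs from its close relative Acot1 mainly at the other end. Its coding sequence of 1362 bases began with 123 bases (41 codons) that lay ahead of the part aligned with the start of Acot1, whose coding sequence has 1260 bases. Mitochondrial enzymes are commonly imported through such a leading stretch. These bases are shown in capitals, followed in lower case by the first 15 bases that align with Acot1.
Acot2, start of the coding sequence: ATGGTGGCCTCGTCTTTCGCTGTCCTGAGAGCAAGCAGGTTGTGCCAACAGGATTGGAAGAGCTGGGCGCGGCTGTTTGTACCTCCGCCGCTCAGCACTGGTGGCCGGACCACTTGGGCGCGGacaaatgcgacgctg
Over the 1239 aligned bases, Acot1 and Acot2 were identical at 95.2% and differed at 59 positions. The other pairs among Acot1 to Acot6 were 73.7% to 85.4% identical.

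The 6 type I genes lie in one cluster of 123.5 kb on chromosome 12 (GRCm38, 83987861 to 84111349), all on the plus strand, in the order Acot2, Acot1, Acot4, Acot3, Acot5, Acot6. The type II genes lie apart. Acot8 is on chromosome 2 (164792765 to 164804882, minus strand) and Acot7 on chromosome 4 (152178134 to 152271855, plus strand). Acot12 (91741512 to 91786148, plus strand) and Acot13 (24817948 to 24831540, minus strand) are on chromosome 13. All values below rest on read counts summed per gene, with no separate values for exons or introns.

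Sequence sharing limits how far reads of the clustered genes can be told apart. The exons of each gene were cut into all windows of 50 bases, and windows that also occur in another gene were counted. In the coding sequence, 43.5% of the windows of Acot1 were also found in Acot2, and 40.1% of those of Acot2 in Acot1. Over whole transcripts, 18.4% of the Acot1 windows and 27.6% of the Acot2 windows occurred in some other member. The corresponding shares were 7.57% for Acot3, 4.17% for Acot4, 22.1% for Acot5 and 3.52% for Acot6. Windows were compared only in the sense direction of the transcripts. In that direction Acot7, Acot8, Acot12 and Acot13 shared no window with any other gene. The overlap of Acot8 with Snx21 on the opposite strand, given below, is therefore not counted here. The read length is not given in the sources used here, so the share of reads that could be assigned to either gene is unknown, and the split between Acot1 and Acot2 is uncertain.

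**Figure D1:**
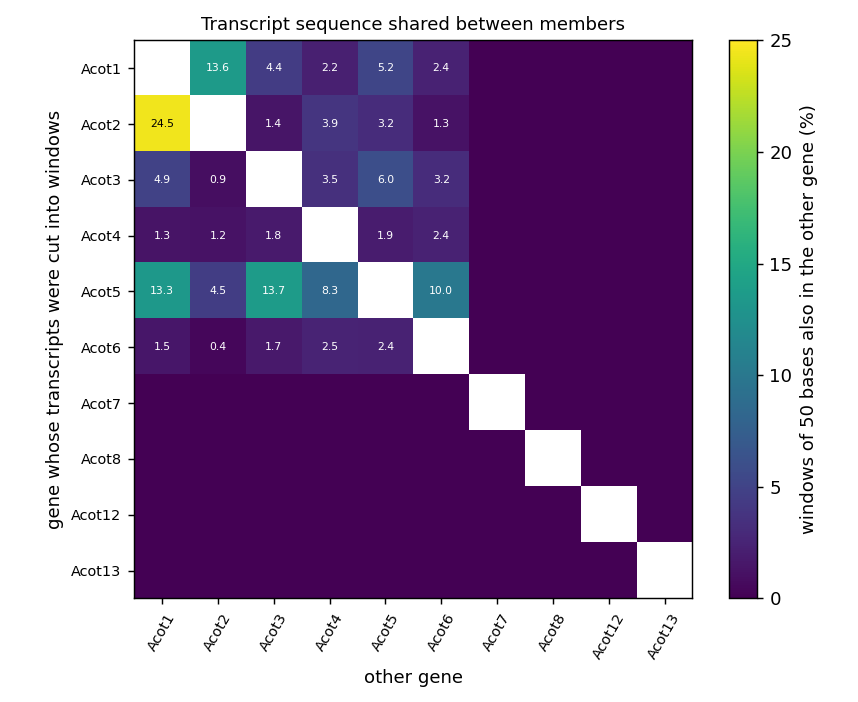
Share of 50-base transcript windows of each gene (rows) that also occur in another member (columns), in percent. Sharing between members lies within the 6 clustered genes, and the 4 type II genes share none. In all, 24.5% of the Acot2 windows were found in Acot1 and 13.6% of the Acot1 windows in Acot2. Sharing with genes outside the family is not shown.

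The libraries held 17457106 to 24461854 counts. Levels are given as CPM, counts scaled to a common library total, after TMM scaling, which corrects for differences in library composition. Of the 16540 genes, 12307 passed the filter on low counts and were tested in 1 fit with edgeR's quasi-likelihood test, and a gene was called at a Benjamini-Hochberg adjusted p under 0.05. The hepatocyte list held 9 of 10 markers in the table, none of which was called, and its summed level was 157500 to 171900 CPM in vehicle and 146800 to 195800 CPM in ISOGK livers. Skeletal muscle markers summed to 71.3 CPM in vehicle mouse 4, at most 0.506 CPM in the other vehicle mice and at most 0.576 CPM in ISOGK mice. In whole liver, fewer cells of a type and less RNA per cell cannot be told apart.

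In ISOGK livers the cytosolic Acot1 and Acot12, the mitochondrial Acot2 and the peroxisomal Acot8 were higher, so each compartment held at least 1 such member. Of the 9 members that passed the filter, 4 were called higher, beside 4.11% of all tested genes, and 0 were called lower, beside 3.44%. Over all tested genes, 506 were called higher and 423 lower, but 262 and 804 when libraries were scaled by their size alone. Acot1 and Acot2 also exceeded a log2 fold change of 1, as 0.999% of all tested genes did. The 4 vehicle values lay below all 4 ISOGK values in the same 4 members, beside 7.91% of all tested genes, and in 0 members lay above them, beside 7.35%. Since the family was chosen on this contrast, nothing is read from these shares.

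Acot1, the cytosolic enzyme that hydrolyses long-chain acyl-CoA, measured 45.9, 28.5, 60.4 and 50.3 CPM in the vehicle mice and 100.3, 121, 109 and 123 CPM in the ISOGK mice. The lowest ISOGK value stood well above the highest vehicle value, and vehicle mouse 2 was the lowest of all. The group means were 46.3 ± 13.3 and 113 ± 10.7 CPM (SD, n = 4 each), which is 2.44-fold (log2 fold change 1.29, SE 0.19).

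Acot2, its mitochondrial counterpart with the same preference for long chains, had the largest fold change of the 9 members tested and was among the less abundant ones. It measured 4.46, 2.85, 3.97 and 4.46 CPM in vehicle livers and 8.19, 14.2, 11.5 and 18.2 CPM in ISOGK livers, from 72 to 348 counts per library. The groups did not overlap, but the ISOGK mice differed from each other 2.23-fold. The group means were 3.94 ± 0.76 and 13.0 ± 4.26 CPM, which is 3.32-fold (log2 fold change 1.73, SE 0.24). The ratio of Acot1 to Acot2, in CPM per kb of exon, was 5.61 to 8.53 in vehicle and 3.77 to 6.87 in ISOGK mice, and these ranges overlapped.

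Acot8, the peroxisomal type II enzyme with a broad range of acyl-CoA substrates, including CoA esters of bile acids, measured 5.27, 5.38, 7.47 and 7.81 CPM in vehicle livers. In ISOGK livers it measured 11.6, 12.2, 10.8 and 12.9 CPM, all above the vehicle range and closer to each other than the vehicle mice were. Its log2 fold change was 0.87 (SE 0.15), or 1.83-fold. Acot8 shares 12.3% of its exon bases with Snx21 on the opposite strand, which was counted at 104 to 213 reads per library and had a log2 fold change of 0.05 (SE 0.17, edgeR adjusted p = 0.891). Whether the counting used strand is not given in the sources used here.

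Acot12, which hydrolyses acetyl-CoA in the cytosol, was the most abundant member. It measured 130, 118, 119 and 127 CPM in vehicle livers and 177, 211, 170 and 149 CPM in ISOGK livers. The vehicle mice lay close together, and ISOGK mouse 4 was the nearest to them. The log2 fold change was 0.52 (SE 0.11), or 1.44-fold. Acot12 was not called when libraries were scaled by their size alone (log2 fold change 0.40, where the median of all genes shifted to -0.13) or without vehicle mouse 2 (0.50).

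The other peroxisomal genes of the cluster did not separate the groups. Acot3, a long-chain enzyme, measured 9.43, 18.0, 14.8 and 28.8 CPM in vehicle livers and 8.87, 31.3, 20.2 and 34.0 CPM in ISOGK livers. Mice of one group thus differed by up to 3.06-fold in vehicle and 3.84-fold in ISOGK, more than the groups differed from each other (log2 fold change 0.41, SE 0.48). Acot4, whose substrates include succinyl-CoA, measured 33.8, 43.7, 48.8 and 58.0 CPM in vehicle livers and 44.3, 72.8, 58.0 and 59.96 CPM in ISOGK livers. Its ranges overlapped and its log2 fold change was 0.35 (SE 0.18). Reads of Acot3 may include some of Gm49366, a readthrough gene that shares 11.5% of its exon bases and was counted at 0 to 14 reads. Mouse 1 of each group was the lowest of its group in both genes.

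Acot6 was near the detection limit, with 14 to 39 counts per library. It ranged from 0.79 to 1.74 CPM in vehicle and from 0.69 to 1.99 CPM in ISOGK livers, with a log2 fold change of 0.02 (SE 0.35). The sign of that value changed with the settings, being positive in 9 and negative in 7 of 16 alternatives. Acot5 did not pass the filter. It had 0 counts in all vehicle mice and in ISOGK mice 1 and 3, with 3 counts in ISOGK mouse 2 and 2 counts in ISOGK mouse 4. A count of 0 allows up to 3 counts, or 0.117 to 0.150 CPM in the vehicle libraries, so that no difference was detectable at this depth and no fold is given.

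The remaining members kept to the vehicle range or close to it. Acot7, a cytosolic long-chain enzyme best known from brain, measured 12.5 to 13.7 CPM in vehicle and 10.5 to 14.0 CPM in ISOGK livers (log2 fold change -0.13, SE 0.12). Acot13, a small mitochondria-associated enzyme, measured 17.6 to 20.5 CPM in vehicle and 15.6 to 19.8 CPM in ISOGK livers (log2 fold change -0.07, SE 0.11). Both had a lower mean in ISOGK mice, and the ranges of the groups overlapped. The means were 12.97 ± 0.58 and 11.88 ± 1.64 CPM for Acot7 and 19.19 ± 1.42 and 18.28 ± 1.84 CPM for Acot13 (SD). ISOGK mice 3 and 4 lay below all vehicle mice in Acot7 (10.68 and 10.47 CPM).

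**Figure D2:**
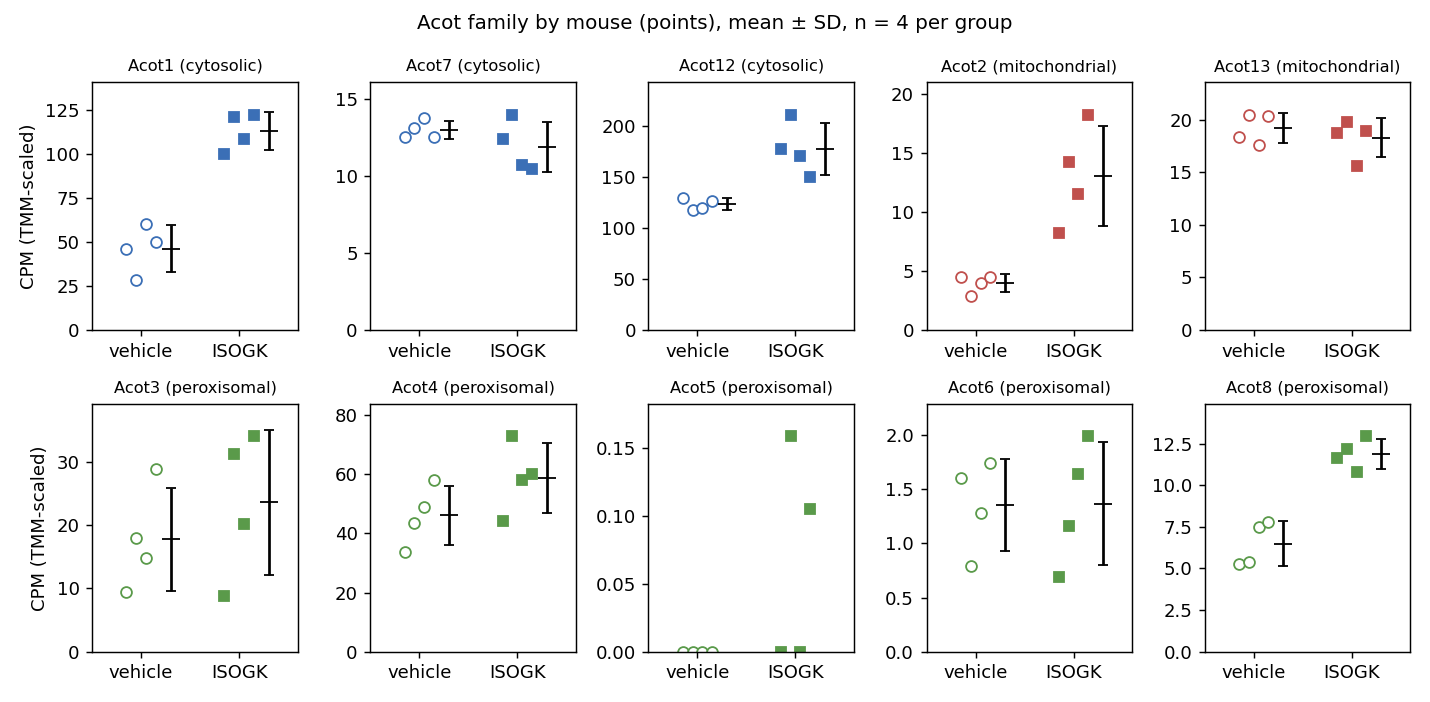
Level of each member in each mouse (points, TMM-scaled CPM on axes that start at 0) with the group mean ± SD (n = 4), except for Acot5, which had 0 to 3 counts per library. The ISOGK points lie above all vehicle points for Acot1, Acot12, Acot2 and Acot8 and overlap them in the other panels.

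With each of the 8 mice left out in turn, the log2 fold change stayed between 1.11 and 1.45 for Acot1, between 1.52 and 1.90 for Acot2 and between 0.79 and 0.97 for Acot8. Without vehicle mouse 4, the one with muscle transcripts, the values were 1.33, 1.80 and 0.97, and that of Acot12 was 0.53.

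**Figure D3:**
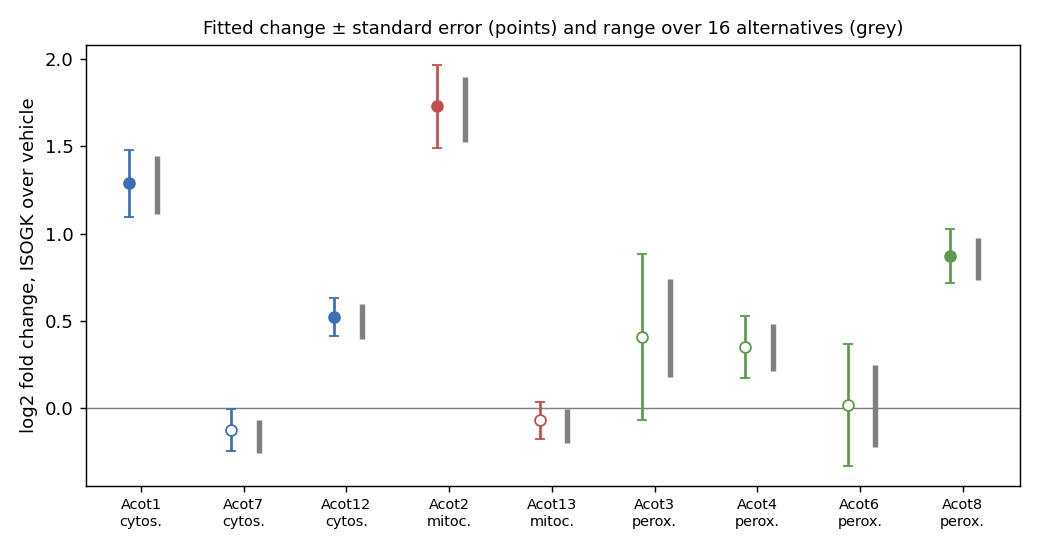
Log2 fold change of ISOGK over vehicle with its standard error for the 9 members tested (filled points were called) and, in grey, the lowest to highest value over 16 alternative settings. Acot1, Acot2, Acot8 and Acot12 stay above 0 throughout, as do Acot3 and Acot4, which were not called. Acot7 and Acot13 stay below 0, and the grey bar of Acot6 crosses 0.

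To compare levels between members, CPM was divided by the length of all exons of a gene in kb. In vehicle livers the order was Acot12 (37.5 ± 1.73 CPM per kb), Acot13 (25.8 ± 1.91), Acot1 (11.8 ± 3.40), Acot4 (6.90 ± 1.52), Acot7 (6.10 ± 0.27), Acot3 (5.16 ± 2.38), Acot8 (3.25 ± 0.67), Acot2 (1.79 ± 0.35), Acot6 (0.211 ± 0.066) and Acot5 at 0 (SD, n = 4). Acot1 overlapped Acot4, Acot4 overlapped Acot7, Acot7 overlapped Acot3 and Acot3 overlapped Acot8, and the other neighbours did not overlap. The order of overlapping neighbours depended on the length used. With the longest annotated transcript, Acot7 held 7.65% and Acot4 6.53% of the summed level. With the transcript of the longest coding sequence, a length chosen after seeing the data, Acot7 (7.44%) also stood above Acot4 (6.35%), and Acot8 (4.8%) above Acot3 (4.39%). In ISOGK livers Acot1, at 28.9 ± 2.72 CPM per kb, had a higher mean than Acot13, at 24.6 ± 2.47, and was the higher of both in 4 of 4 mice, although the ranges overlapped (25.6 to 31.3 against 20.97 to 26.6). Acot12 stayed first at 53.7 ± 7.77. Acot2, at 5.93 ± 1.94, then lay beside Acot8, at 5.95 ± 0.45, and Acot7, at 5.595 ± 0.77.

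The compartments were compared by the sum of their members in CPM per kb. The cytosolic sum was 57.0, 49.3, 58.1 and 57.1 in vehicle mice and 85.3, 102, 84.4 and 81.6 in ISOGK mice, with no overlap and a ratio of means of 1.59. The mitochondrial sum was 26.7, 28.8, 25.5 and 29.3 in vehicle mice and 29.0, 33.1, 26.2 and 33.8 in ISOGK mice. These ranges overlapped (ratio 1.11), and Acot13, which overlapped between the groups, made up most of that sum. The peroxisomal sum was 10.7, 14.6, 15.6 and 21.3 in vehicle mice and 15.1, 26.4, 20.2 and 25.7 in ISOGK mice, again overlapping (ratio 1.41). Over all members the sum was 98.5 ± 6.74 in vehicle and 140.6 ± 14.6 in ISOGK livers, without overlap (ratio 1.43).

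The share of the mitochondrial members in the family's level was lower in ISOGK livers, while their summed level was not (ratio of means 1.11). The split of reads between the cytosolic Acot1 and the mitochondrial Acot2 is uncertain, which limits the shares of both compartments. The cytosolic share of the summed level was 56.3% ± 3.76 in vehicle and 62.8% ± 3.54 in ISOGK livers, and its ranges overlapped (53.0% to 60.4% against 57.8% to 65.9%). The mitochondrial share was 28.1% ± 2.27 and 21.7% ± 1.80, without overlap (25.7% to 31.1% against 20.0% to 23.9%). With the longest annotated transcript as length it was 25.2% and 18.8%. The peroxisomal share was 15.6% ± 3.44 and 15.4% ± 2.75. Acot1 alone took 11.9% ± 3.17 of the sum in vehicle and 20.6% ± 1.34 in ISOGK livers. Its share was 15.5% and 26.1% with the longest annotated transcript as length, and 17.4% and 28.7% with the transcript of the longest coding sequence. On the log2 scale, the median fold change was 0.52 for the 3 cytosolic members, 0.83 for the 2 mitochondrial members and 0.38 for the 4 peroxisomal members tested, with 0.0018 for all tested genes. The mitochondrial value is only the midpoint of Acot2 (1.73) and Acot13 (-0.07), and neither lies near it. It does not rank that compartment first, since the mitochondrial sum had the lowest ratio of means (1.11, beside 1.59 for cytosolic and 1.41 for peroxisomal members). The peroxisomal median was 0.22 without vehicle mouse 1 and 0.24 without ISOGK mouse 2, its lowest values, and 0.61 without vehicle mouse 4, its highest, when mice were left out in turn. It was above the cytosolic median without vehicle mouse 4 (0.61 and 0.53) and without ISOGK mouse 1 (0.57 and 0.52), so these medians set no order between the 2 compartments.

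**Figure D4:**
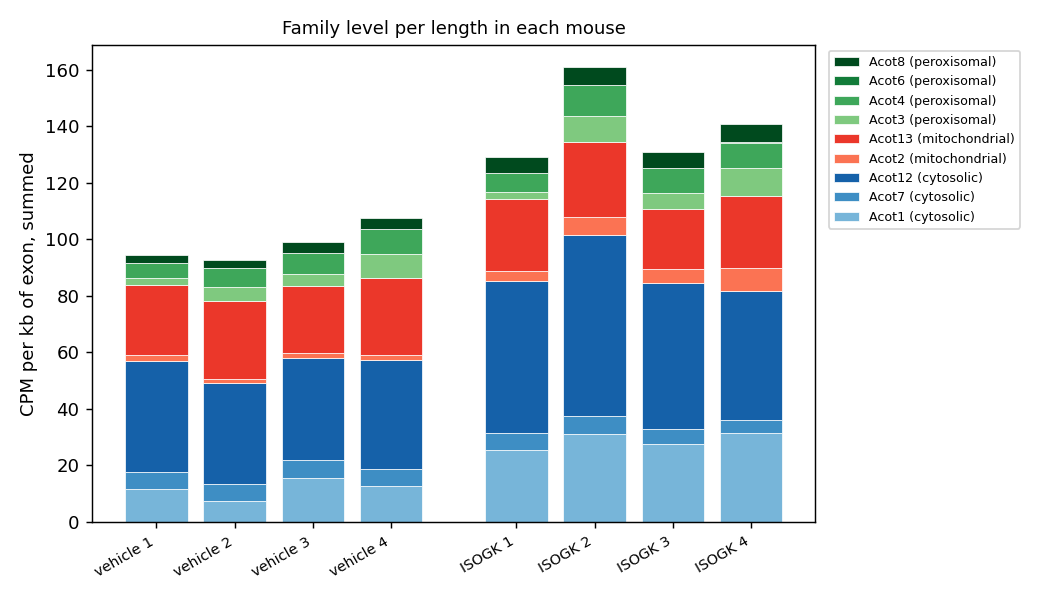
Level of the members per length in each mouse, stacked (CPM per kb of exon), with cytosolic members in blue, mitochondrial in red and peroxisomal in green, Acot5 left out. The totals are 92.7 to 107.7 in vehicle and 129 to 161 in ISOGK mice, with the taller blue parts (Acot1 and Acot12) in ISOGK mice.

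Clustered genes were then compared for variation between mice of the same group, which the choice of members did not use. For 10 pairs among Acot1, Acot2, Acot3, Acot4 and Acot6, deviations of log2 CPM from the group means were correlated over 8 mice and tested by exact permutation within groups (576 arrangements, two-sided). The highest Pearson value was that of the neighbours Acot3 and Acot4 (Pearson r = 0.893, p = 0.0139, adjusted p = 0.104; Spearman rho = 0.762, p = 0.066, adjusted p = 0.25). Without the 2 mice farthest from the median of Acot3, r was 0.635. Acot2 and Acot6, at opposite ends of the cluster, gave a similar r of 0.878 (exact permutation p = 0.0208, adjusted p = 0.104) and the highest rho of 0.786 (p = 0.0625, adjusted p = 0.25), with r = 0.469 without the 2 mice farthest from the median of Acot2. Acot1 and Acot2 gave r = 0.643 (exact permutation p = 0.0312, adjusted p = 0.104; rho = 0.619, p = 0.108, adjusted p = 0.25) and 0.895 without the 2 mice farthest from the median. Of the coding windows, 43.5% of those of Acot1 also occur in Acot2, and 40.1% of those of Acot2 in Acot1. The part of shared reads in the correlation of these genes was not tested. None of the 10 pairs passed the adjustment over the pairs.

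The genes whose log2 CPM followed Acot1 most closely over the 8 libraries were Fermt1 (r = 0.984), Rapgef1 (r = 0.983) and Crat (r = 0.983). For Acot2 they were Plin2 (r = 0.993), which coats lipid droplets, Gars (r = 0.989) and Tgfbrap1 (r = 0.988). These values are a description, since all points share the 2 groups.

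RefSeq promoter windows (GRCm38.p6, from 250 bases before to 50 after the start site) were matched for 8 of the 10 members, all except Acot6 and Acot13. The windows of the 4 members that were higher are shown from their first base to 21 bases before the start site, 5′ to 3′ on the strand of the gene, because these are the sequences next to the transcripts that differed. Capitals mark the CCAAT box (CCAAT), the GC box (GGGCGG) and the nuclear receptor core AGGTCA, on either strand.
Acot1, plus strand, chr12:84009252-84009481: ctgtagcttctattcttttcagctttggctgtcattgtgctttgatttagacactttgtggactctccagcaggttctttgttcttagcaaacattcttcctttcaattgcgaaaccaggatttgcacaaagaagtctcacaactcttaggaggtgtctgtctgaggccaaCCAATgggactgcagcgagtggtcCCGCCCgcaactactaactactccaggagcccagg
Acot2, plus strand, chr12:83987611-83987840: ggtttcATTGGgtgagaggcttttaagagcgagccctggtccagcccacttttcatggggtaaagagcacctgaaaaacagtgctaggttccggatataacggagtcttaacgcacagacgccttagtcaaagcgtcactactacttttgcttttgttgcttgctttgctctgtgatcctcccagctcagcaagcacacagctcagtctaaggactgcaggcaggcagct
Acot8, minus strand, chr2:164804902-164805131: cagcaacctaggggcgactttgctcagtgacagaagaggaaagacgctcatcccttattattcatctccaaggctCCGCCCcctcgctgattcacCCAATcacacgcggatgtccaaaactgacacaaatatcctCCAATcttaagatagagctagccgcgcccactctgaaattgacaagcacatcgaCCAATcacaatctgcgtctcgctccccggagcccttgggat
Acot12, plus strand, chr13:91741271-91741500: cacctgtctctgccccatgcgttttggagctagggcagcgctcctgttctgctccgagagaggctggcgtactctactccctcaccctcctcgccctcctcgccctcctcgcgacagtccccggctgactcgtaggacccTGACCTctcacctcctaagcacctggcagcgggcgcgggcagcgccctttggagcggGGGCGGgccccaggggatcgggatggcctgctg
A CCAAT box was found in 6 of the 8 windows (Acot1, Acot2, Acot3, Acot4, Acot5 and Acot8), beside 37.4% of 32851 promoters. Acot8 held 3 of them. A GC box was found in 4 (Acot1, Acot7, Acot8 and Acot12), beside 35.7% of all. AGGTCA was found in 4 (Acot3, Acot4, Acot5 and Acot12), beside 16.3%. A direct repeat of AGGTCA with 1 base between the copies, which by its letters also counts as AGGTCA and is the arrangement that PPAR alpha with its partner RXR recognises, was found in 0 of the 8 and in 0.0396% of all promoters. A TATA box (TATAAA) was found in Acot4, beside 13.6% of all, and so was an E-box (CACGTG), beside 7.15%. No match says only that these letters are not in this window.

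The enzymes around the thioesterases were described with lists of pathway genes. For these lists and the markers below, rose and fell mean called higher and called lower at an adjusted p under 0.05. Of all tested genes, 4.11% were called higher and 3.44% lower. Of 21 tested genes of peroxisomal oxidation and acyl transfer, 13 rose and 1 fell (median log2 fold change 0.54, beside 0.0018 for all tested genes). Ehhadh, the peroxisomal bifunctional enzyme, rose from 308 ± 29.5 to 1836 ± 194 CPM (log2 fold change 2.57, SE 0.12, edgeR adjusted p = 4.7e-07). Crat, which moves acyl groups from CoA to carnitine, rose by 1.44 on the log2 scale (SE 0.22, edgeR adjusted p = 0.00503), and Abcd3, an importer of fatty acyl-CoA into peroxisomes, rose by 0.77 (SE 0.12, adjusted p = 0.00269). Scp2, the peroxisomal thiolase and sterol carrier, had a log2 fold change of 0.26 (SE 0.10, adjusted p = 0.153). The list had 9 calls without vehicle mouse 1, vehicle mouse 2 or ISOGK mouse 2.

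Of 19 genes of the mitochondrial carnitine shuttle and beta-oxidation, 12 rose and 0 fell (median 0.56). The log2 fold change was 0.74 (SE 0.09, edgeR adjusted p = 0.00117) for Etfdh, which passes electrons from acyl-CoA dehydrogenases to ubiquinone. It was 0.81 (SE 0.11, adjusted p = 0.00178) for Decr1, needed for unsaturated fatty acids, 0.84 (SE 0.12, adjusted p = 0.00185) for Slc25a20, the carnitine-acylcarnitine carrier, and 0.61 (SE 0.09, adjusted p = 0.00227) for Hadhb of the trifunctional protein. Cpt1a, the entry step of the shuttle, rose by 0.60 (SE 0.15, adjusted p = 0.0371). Acaa2, a thiolase, had a log2 fold change of 0.13 (SE 0.12, adjusted p = 0.551).

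Of 20 PPAR alpha targets other than thioesterases, 19 rose and 0 fell (median 1.36), with 7 of the 20 also on another list. Their direction is not independent evidence, because the list was chosen with earlier results of these samples known. Cyp4a14, a fatty acid omega-hydroxylase, rose from 1254 ± 171 to 5454 ± 713 CPM (log2 fold change 2.12, SE 0.13, edgeR adjusted p = 1.0e-05). Its relatives Cyp4a31 and Cyp4a10 had log2 fold changes of 2.37 (SE 0.16, adjusted p = 3.5e-05) and 2.02 (SE 0.16, adjusted p = 6.1e-05).

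Of 8 tested thioesterases outside the members, 1 rose and 0 fell (median 0.05). It was Baat, which conjugates bile acids and also hydrolyses acyl-CoA (log2 fold change 0.39, SE 0.10, edgeR adjusted p = 0.0376). Baat was not called without ISOGK mouse 2, ISOGK mouse 4 or any 1 of the 4 vehicle mice. Hibch, of valine breakdown, had a log2 fold change of 0.07 (SE 0.13, adjusted p = 0.791). Of 16 acyl-CoA synthetases, 4 rose and 1 fell (median 0.12). Acsl1, the main long-chain synthetase of liver, rose by 0.94 (SE 0.17, adjusted p = 0.00744), and Slc27a1 rose by 1.12 (SE 0.26, adjusted p = 0.0293). Slc27a4 and Slc27a2, also fatty acid transport proteins with synthetase activity, rose by 0.46 (adjusted p = 0.0315) and 0.44 (adjusted p = 0.0417). Acsm5, a medium-chain synthetase, fell by 0.61 (SE 0.12, adjusted p = 0.0116). The list had 2 calls without vehicle mouse 2 or vehicle mouse 4, and 3 without vehicle mouse 1, vehicle mouse 3 or ISOGK mouse 2.

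Of 15 genes of CoA synthesis, transport and breakdown, 2 rose and 0 fell (median 0.09). Vnn1, the pantetheinase, rose from 44.7 ± 15.5 to 131 ± 20.2 CPM (log2 fold change 1.56, SE 0.26, edgeR adjusted p = 0.0101). Slc25a42, the mitochondrial CoA carrier, rose by 0.64 (SE 0.13, adjusted p = 0.0128). Pank1, which starts CoA synthesis, had a log2 fold change of 0.26 (SE 0.11, adjusted p = 0.16), and Nudt7, which breaks down CoA in peroxisomes, one of -0.41 (SE 0.24, adjusted p = 0.33). Without vehicle mouse 2, the list had 1 call.

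Of 12 transcription factors of hepatic lipid genes, 0 rose and 2 fell (median 0.02). They were Mlxipl, the carbohydrate-responsive factor ChREBP (log2 fold change -1.12, SE 0.13, edgeR adjusted p = 0.00091), and Srebf1, which drives fatty acid synthesis (-1.60, SE 0.24, adjusted p = 0.00592). Hnf4a had a log2 fold change of 0.05 (adjusted p = 0.804) and Rxra one of -0.17 (adjusted p = 0.327). Ppara, named here after its value was seen, measured 77.1 ± 6.32 CPM in vehicle and 80.5 ± 12.01 CPM in ISOGK livers (log2 fold change 0.06, SE 0.11, adjusted p = 0.791).

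**Figure D5:**
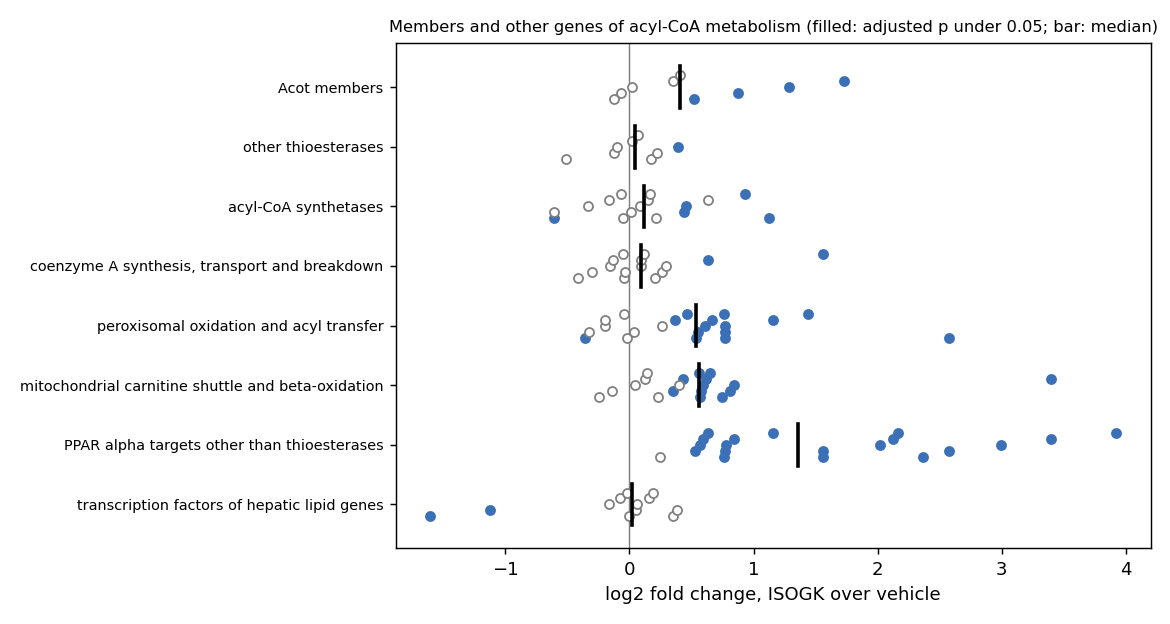
Log2 fold change of ISOGK over vehicle for the tested members and for the tested genes of 7 lists (points, filled where the adjusted p was under 0.05), with the median of each list as a black bar. The PPAR alpha target list has the highest median (1.36), and 4 of 9 members are filled, all above 0.

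Markers of other cells moved with the groups in part. Of 8 macrophage markers, 1 fell, Cd68 (log2 fold change -0.57, SE 0.11, edgeR adjusted p = 0.009), and 7 were below 0 (median -0.48). Their summed level was 1224 to 1595 CPM in vehicle and 1005 to 1281 CPM in ISOGK livers. Of 7 stellate cell markers, 0 were called (median -0.10, sums of 295 to 408 CPM in vehicle and 232 to 436 CPM in ISOGK). Of 2 neuron markers tested, 1 fell, Syt1 (log2 fold change -0.76, SE 0.21, edgeR adjusted p = 0.0472). The neuron list summed to 8.58 to 9.53 CPM in vehicle and 3.56 to 7.65 CPM in ISOGK livers. Most of this sum was Syt1 (means of 8.1 and 4.8 CPM), so the sum describes that gene and not neurons. Map2 was not called (means of 0.72 and 0.50 CPM). Rbfox3 did not pass the filter and had the higher mean in ISOGK livers (0.14 and 0.25 CPM). The 1 adipocyte marker in the table stayed at or under 0.58 CPM, and no muscle marker passed the filter. The part of these cells in the Acot values was not tested.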

How the data were processed

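RNA-seq libraries from 8 livers (4 vehicle, 4 ISOGK) were analysed from the read counts per gene that the authors deposited as raw counts. The authors aligned single-end reads with HISAT2 to mm10, as their processing notes name it. The paper names StringTie for computing the counts per gene. The read length, the gene annotation and the use of strand are not given in the sources used here. Groups and replicate numbers came from the labels, the DMSO columns being the vehicle group. The members and lists were chosen with earlier results of these data known. The named genes were all members and, on each list, up to the 4 called genes with the smallest adjusted p and the 2 with the highest mean CPM. Some genes that this rule names are not reported here.

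Counts of 16540 genes were filtered with filterByExpr (minimum count 10), leaving 12307, scaled by TMM and fitted with edgeR 4.0.16 (robust quasi-likelihood test, two-sided, Benjamini-Hochberg adjustment). DESeq2 1.42.0 and limma 3.58.1 served as alternatives, and the scripts were tested on simulated data. Exon lengths and coding sequences came from GENCODE M21, which held 16211 of the table's symbols, and promoters from RefSeq. Totals of 17457106 to 24461854 counts set the precision, and a count of 0 allows up to 3 counts, for counting error only. The labels number the libraries without stating separate animals, so p-values measure the spread between these libraries, each taken as 1 mouse.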

Additional observations from a re-analysis of the deposited data

Results flagged for a closer look

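The sum of the cytosolic members in vehicle mouse 2, 49.3 CPM per kb, stood apart from the other vehicle mice (57.0 to 58.1). The distance to its nearest neighbour made up 0.881 of the spread over all 4 mice, beyond Dixon's 95% critical value. It was 1 of 24 groups examined, of which chance would flag about 1.2. The same mouse had the lowest Acot1 and Acot2 values of all 8. Without it, the log2 fold changes were 1.11 for Acot1, 1.599 for Acot2 and 0.50 for Acot12, and Acot12 was no longer called.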

How the results depend on the processing

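Acot1, Acot2 and Acot8 kept their direction and their call in all 16 alternatives fitted across all genes, and Acot12 lost its call in 2 of them. With library size alone in place of TMM, 3 members were called, and 262 genes were called higher and 804 lower in all, beside 506 and 423. The Wald test of DESeq2 called 765 higher and 670 lower. The labels number the mice 1 to 4 in each group. Deviations of log2 CPM from the group means were correlated over all tested genes between same-numbered mice. These correlations were 0.013, -0.014, 0.075 and 0.085, so the numbers were not taken as pairs. With the replicate block, 4 members were called. Other thioesterases then had 0 calls and acyl-CoA synthetases 3, as with library size alone. Leaving out each mouse in turn gave 219 to 712 genes called higher and 160 to 523 lower, 0 to 1 other thioesterases, 2 to 5 acyl-CoA synthetases, 1 to 2 genes of CoA metabolism and 9 to 13 of peroxisomal oxidation. The lowest counts, 219 and 160, came without vehicle mouse 2. Depth limits Acot5 and Acot6.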
